A study of Mus musculus with 16 samples.

Results

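The genes described here encode the nuclear subunits of the mitochondrial respiratory chain and ATP synthase, measured in liver of C57BL/6BomTac mice whose mothers inhaled UV-Titan, a coated titanium dioxide of nano size, during pregnancy. Members were all genes on the array whose file name begins as Nduf with a, b, c, s or v and a digit, Sdha to Sdhd, Uqcr, Cox with a digit from 4 to 8, or Atp5, which gave 80 genes of 27962. By name, 35 belonged to complex I, 4 to complex II, 7 to complex III, 18 to complex IV and 16 to complex V. Where a gene had several probes, the brightest in liver on average was used. The rule for genes reads names and no values, while the choice of probe reads liver intensity.

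Dams breathed about 42 mg/m3 UV-Titan or filtered clean air for 1 hour per day, by whole-body exposure, from gestation day 8 to 18. Offspring livers fell into 4 groups by sex and maternal exposure. They comprised 3 control females, 5 UV-Titan females, 4 control males and 4 UV-Titan males, with no other agent or allele. The study killed offspring on postnatal day 2 and on days 23 to 24, and the sample labels used here do not say from which age each liver came. The labels name no litter for a sample, so p-values measure the spread between these samples, some of which may be littermates. Each liver RNA, from random sections of whole tissue, was hybridised together with a universal mouse reference RNA, a commercial pool, on 1 two-colour Agilent array.

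The respiratory chain passes electrons from NADH through complex I, or from succinate through complex II, to ubiquinone, then through complex III and cytochrome c to oxygen at complex IV. Complexes I, III and IV pump protons across the inner mitochondrial membrane, and complex V, the ATP synthase, uses that gradient to make ATP. Several complex IV subunits exist as a widely expressed form and a form of heart and skeletal muscle, and liver is known for the widely expressed one. In bulk tissue, fewer cells of a type and less RNA per cell cannot be told apart.

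The probes below are shown so that the widely expressed and the tissue forms of 4 complex IV subunits, to which several results refer, can be told apart. Each is 60 bases, taken from the scanner files, 5′ to 3′, with its position in build mm7 where the file gives it. No part is in capitals.
Cox6a1 (chr5:114566550-114566609, minus strand): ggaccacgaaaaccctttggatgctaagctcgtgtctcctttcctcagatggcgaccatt
Cox6a2 (chr7:124302204-124302263, minus strand): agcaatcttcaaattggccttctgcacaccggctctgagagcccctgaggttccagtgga
Cox7a2 (chr9:79831804-79831863, minus strand): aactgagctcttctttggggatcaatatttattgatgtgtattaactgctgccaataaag
Cox7a1 (position not given in the file): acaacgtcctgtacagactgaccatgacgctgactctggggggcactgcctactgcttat
Cox8a (chr19:7035098-7035157, minus strand): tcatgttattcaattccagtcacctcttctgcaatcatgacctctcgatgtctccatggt
Cox8b (chr7:137316216-137316275, minus strand): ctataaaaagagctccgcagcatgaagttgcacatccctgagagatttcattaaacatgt
Cox6b1 (chr7:27565779-27567275, minus strand): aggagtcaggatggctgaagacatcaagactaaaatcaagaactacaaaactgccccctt
Cox6b2 (chr7:4326339-4326398, minus strand): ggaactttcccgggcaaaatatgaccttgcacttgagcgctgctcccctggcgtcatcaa
The longest run of bases shared by the probes of a pair was 4 for Cox6a1 and Cox6a2, 6 for Cox7a2 and Cox7a1, 5 for Cox8a and Cox8b, and 6 for Cox6b1 and Cox6b2.

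The liver RNA was read in red. The labelling protocol says so, while the label fields give the opposite dyes. All 9 hepatocyte markers on the array were brighter in red than in green on every array. The sex genes followed the labels: in the 8 females the log2 ratio of red over green averaged 1.88 ± 0.13 (SD) for Xist and −1.93 ± 0.25 for Ddx3y, and in the 8 males −5.69 ± 0.40 and 1.82 ± 0.14. Between 57.7% and 67.1% of spots were well above background in red, and no spot was saturated. Of the 80 members, 78 passed the filter (well above background in red on at least 3 arrays), 77 of them on all 16 arrays. Markers of exocrine pancreas and of skeletal muscle varied between arrays. The median log2 ratio of 11 pancreas markers ran from 0.20 to 3.34 over arrays, and that of 9 muscle markers from −1.27 to 1.68, the highest on male UV-Titan 5.

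Most chain genes were brighter in liver than in the reference. The mean log2 ratio over 16 arrays was above 0 for 68 of 78 members (87.2%), against 56.0% of the 18849 genes tested. The median over members was 0.61, a 1.53-fold excess, against 0.07 over all genes tested. On every array, 64 members were above 0 and 4 were below it. The ratios are those left after a loess fit, which sets each gene against others of like brightness. For members and all other genes alike, the probe brightest in liver was used. With the mean over probes, the medians of complexes I, II and V were lower. With the authors' deposited table the median over members was 0.16, and with each array centred on its median and no loess it was 0.81. The columns of the deposited table have medians from −0.045 to −0.038. The median over all genes tested is not given for these alternatives, so the excess over other genes is shown for the loess ratios only.

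**Figure D1:**
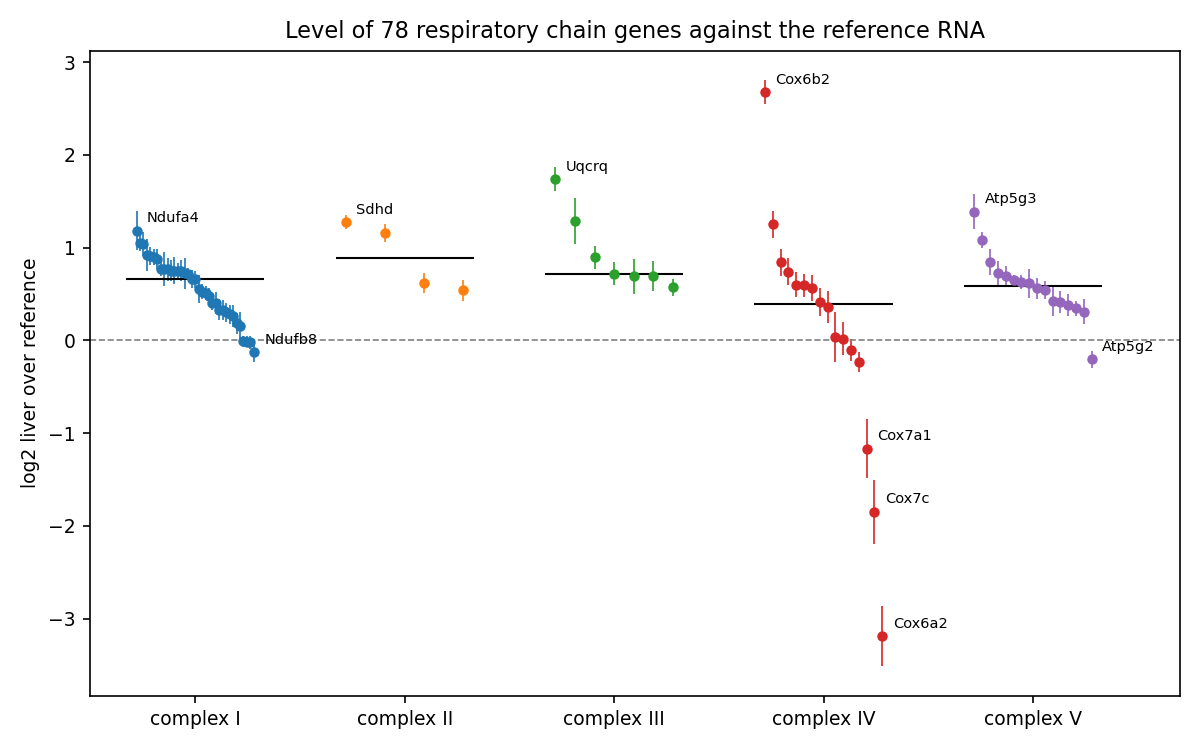
Mean log2 ratio of liver over reference (vertical axis) for the 78 members tested, by complex (horizontal axis). Points are means over 16 arrays, bars are SD over the 16 arrays and black lines are complex medians. Complexes I, II, III and V lie mostly between 0 and 1.5, while complex IV reaches from −3.19 for Cox6a2 to 2.68 for Cox6b2.

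Complex I, the NADH dehydrogenase, had a median log2 ratio of 0.66 over 35 members, 31 of them above 0. In the authors' deposited table this median was 0.18. The highest was Ndufa4 at 1.18 ± 0.21 (SD, n = 16), a protein named for complex I and now known to associate with complex IV. Ndufb10 followed at 1.05 ± 0.09 and Ndufb11 at 1.04 ± 0.13, both accessory subunits of the membrane arm. The lowest were Ndufb8 at −0.13 ± 0.11, Ndufs7 at −0.02 ± 0.07 and Ndufa12 at −0.01 ± 0.06. Ndufs7 carries an iron-sulphur cluster of the core. These lowest members lay near the level of the reference.

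All 4 subunits of complex II, the succinate dehydrogenase, were above the reference on every array, with a median log2 ratio of 0.89. The membrane anchor Sdhd was at 1.28 ± 0.08 (SD, n = 16). The flavoprotein Sdha, which holds the catalytic site, was at 1.16 ± 0.09. The other anchor, Sdhc, was at 0.62 ± 0.11 and the iron-sulphur protein Sdhb at 0.54 ± 0.11. A second Sdha probe gave 0.49, so that level depended on the probe.

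All 7 genes of complex III were above the reference on every array, with a median of 0.72 here and 0.37 in the authors' deposited table. Uqcrq, a small accessory subunit, was highest at 1.74 ± 0.13 (SD, n = 16), although its second probe gave 0.35. Uqcrfs1, the Rieske iron-sulphur protein, was at 1.28 ± 0.25, and the core protein Uqcrc2 at 0.89 ± 0.12. The lowest were Uqcrc1, the other core protein, at 0.57 ± 0.09, Uqcrh at 0.69 ± 0.16 and Uqcr, now Uqcr11, at 0.69 ± 0.19.

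In complex V, 15 of 16 members were above the reference on every array and the median was 0.59. In the authors' deposited table the median was 0.12. The 3 genes Atp5g1, Atp5g2 and Atp5g3 encode the same mature ring subunit of the synthase. Their log2 ratios were 0.55 ± 0.09 for Atp5g1, −0.20 ± 0.09 for Atp5g2 and 1.39 ± 0.19 for Atp5g3 (SD, n = 16). Atp5g2 was thus the only complex V gene with a mean below the reference in this measure. Atp5j, a stalk subunit, was at 1.09 ± 0.08 and the catalytic subunit Atp5b at 0.72 ± 0.14. Atp5a1, the other large subunit of the head, was at 0.85 ± 0.14. The lowest after Atp5g2 were Atp5c1, the central stalk, at 0.31 ± 0.13 and Atp5j2 at 0.34 ± 0.08. Atp5s, now Dmac2l, matched by name without being a subunit of the synthase proper and stood at 0.43 ± 0.17.

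Complex IV, cytochrome c oxidase, was the most uneven, with 11 of 16 tested members above the reference and a median of 0.39. The authors' deposited table gave −0.06 for this median. The widely expressed forms were above the reference: Cox6a1 at 0.84 ± 0.15, Cox7a2 at 0.60 ± 0.13, Cox6b1 at 0.59 ± 0.12 and Cox4i1 at 0.36 ± 0.17 (SD, n = 16). Cox8a, the widely expressed form of subunit VIII, was at −0.10 ± 0.12. Cox7b was at 1.25 ± 0.15. Cox7a2l, known from work on supercomplexes, was at 0.02 ± 0.18, and Cox4nb, now Emc8 and no oxidase subunit, at −0.24 ± 0.11.

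The muscle forms were low or not measurable. Cox6a2, the heart and skeletal muscle form of subunit VIa, had a log2 ratio of −3.19 ± 0.32 (SD, n = 16), and Cox7a1, the muscle form of VIIa, −1.17 ± 0.32. Cox8b, the muscle form of VIII, was well above background in liver on 3 of 16 arrays. Cox4i2, a form best known from lung, and Cox8c, one of testis, were each well above background on 1 array. In the groups where Cox4i2, Cox8b or Cox8c was dim in liver the reference was dim too, so no fold is given. Cox6b2, the form of VIb best known from testis, was the highest of all members at 2.68 ± 0.13, from 2.46 to 2.89 over arrays.

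Cox7c, a subunit with no muscle counterpart among the members, stood at −1.85 ± 0.35 (SD, n = 16) on its probe. A probe that the file labels with an expressed sequence cluster, TC1410591, is described there as the same polypeptide. It lies on chr13:83114235-83114294 in mm7 and had a log2 ratio of 1.16 ± 0.11. Both probes are shown because they gave opposite levels.
Cox7c (chr13:83112800-83113677, minus strand): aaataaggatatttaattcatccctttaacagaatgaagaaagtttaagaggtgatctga
TC1410591 (chr13:83114235-83114294, minus strand): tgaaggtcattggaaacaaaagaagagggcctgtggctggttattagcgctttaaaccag
The TC1410591 probe was picked after its values were seen.

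Promoters of members were searched for 2 motifs: GCGCATGC, the core read by NRF1, a regulator of nuclear genes for mitochondria, and CCGGAAGT, read by ETS factors such as GABPA, each on both strands. RefSeq promoters (GRCm38.p6, 300 bases) were found for 65 of 80 members. With 1 promoter per gene, the NRF1 core was present in 10 of 65 (15.4%), against 2.80% of 27025 genes. The ETS motif was present in 5 of 65 (7.69%), against 4.0%, and either motif in 14 (21.5%), against 6.56%. Windows from 6 members that hold the NRF1 core, from all 5 complexes, are printed with motifs in capitals. Overlapping matches on the opposite strands form 1 run.
Ndufa11 (chr17:56717690-56717723, plus strand): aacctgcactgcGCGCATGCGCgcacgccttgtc
Sdhb (chr4:140961205-140961236, plus strand): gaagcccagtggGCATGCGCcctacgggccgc
Uqcr (chr10:80406806-80406899, minus strand): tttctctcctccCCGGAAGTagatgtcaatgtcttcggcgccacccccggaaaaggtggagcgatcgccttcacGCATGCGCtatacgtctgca
Cox6a1 (chr5:115349099-115349132, minus strand): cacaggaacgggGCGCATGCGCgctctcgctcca
Atp5g2 (chr15:102671068-102671101, minus strand): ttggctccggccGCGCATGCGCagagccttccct
Atp5k (chr5:108434428-108434461, minus strand): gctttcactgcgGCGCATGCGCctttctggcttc
Uqcr was the only member whose window held both motifs. A match is a description of letters and not of binding.

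Maternal UV-Titan was not followed by a change that passed the test in any chain gene of the female offspring. By limma with Benjamini-Hochberg adjustment over 18849 genes, 0 of 78 members passed an adjusted p of 0.05, against 0% of all genes tested. The median log2 difference, UV-Titan minus control, was 0.03 over members and 0.02 over all genes. Above 0 were 53 of 78 members, against 11064 of 18849 genes. In the liver channel alone 31 of 78 were above 0, against 9386 of 18849 genes, with a median of −0.018 over members. The median from the authors' deposited table was −0.017. By complex the median was 0.05 for I, 0.06 for II, 0.06 for III, 0.02 for IV and 0.02 for V. At an unadjusted p below 0.05, 4 members were higher and 0 lower. Over all genes these shares were 5.46% higher and 1.27% lower. Means of some cell markers, set against their own mean over arrays, also differed between the female groups. In the liver channel that of 7 megakaryocyte and platelet markers lay from −0.35 to −0.27 in controls. After UV-Titan it lay from −0.072 to 0.28, without overlap. That of 8 granulocyte markers lay from −0.54 to −0.096 and from −0.24 to 0.30, with overlap. That of 9 hepatocyte markers overlapped in the liver channel, from −0.13 to 0.073 and from −0.16 to 0.24. In the log2 ratio it lay from −0.51 to −0.32 in controls and from −0.19 to 0.49 after UV-Titan, without overlap. In the ratio 7 erythroid markers lay from −0.36 to −0.31 and from −0.23 to 0.12, also without overlap. In the liver channel these erythroid markers overlapped, from −0.41 to 0.25 in controls and from −0.46 to 0.19 after UV-Titan. Their part in the member values was not tested. The 95% interval of a member had a median half-width of 0.19, so differences of that size could not be told from none.

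**Figure D2:**
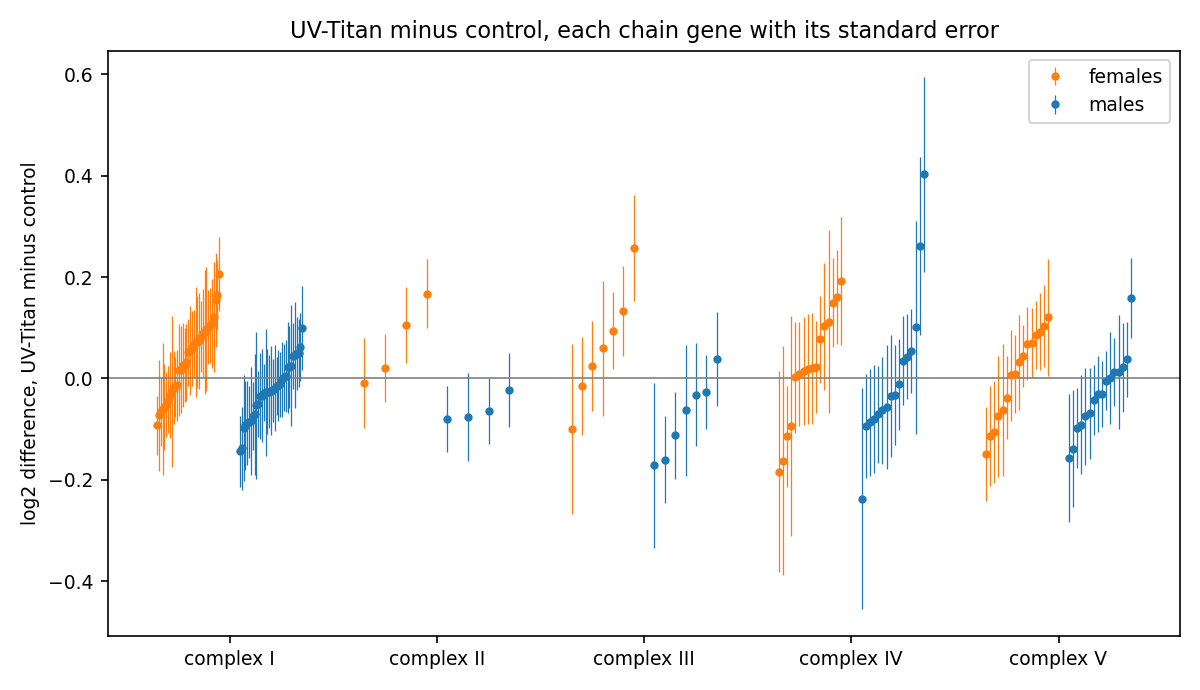
Log2 difference of UV-Titan minus control (vertical axis) for each of 78 members by complex (horizontal axis), in females (orange) and males (blue), with standard errors as bars. Members are sorted by difference within each complex and sex. Cox8b, not well above background in liver on any control array, is among the points. Most points lie within 0.2 of 0, and the highest is Cox6a2 in males at 0.40.

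The 4 female differences with the smallest p were in Ndufa9, Sdhc, Uqcrh and Ndufb7. Ndufa9, an accessory subunit of complex I near the ubiquinone site, had log2 ratios of 0.63, 0.75 and 0.80 in controls and 0.80, 0.83, 0.90, 1.02 and 1.12 after UV-Titan. The groups did not overlap. The difference was 0.21 ± 0.07 (SE), with an unadjusted p of 0.0117 and an adjusted p of 0.665 by limma. In the liver channel alone it was 0.10 ± 0.09 (SE). Within the 3 slides that held both groups the ratio differed by 0.15, 0.20 and 0.22, from 1 array of each group. The sign within slides was fixed by the lack of overlap, so it adds no further support.

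Ndufb7, another accessory subunit, had ratios of 0.79, 0.80 and 0.82 in control females and 0.88, 0.93, 0.96, 0.96 and 1.12 after UV-Titan. Here too the groups did not overlap. Its difference was 0.16 ± 0.07 (SE), with an adjusted p of 0.688 by limma. Ndufa9 and Ndufb7 were the 2 members of 78 in which every UV-Titan female lay above every control, against 3.21% of all genes.

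Uqcrh, the hinge protein that links cytochrome c1 with cytochrome c, had ratios of 0.45, 0.54 and 0.58 in control females. After UV-Titan they were 0.53, 0.72, 0.72, 0.79 and 1.14. The groups overlapped, and UV-Titan female 8 was the highest. The difference was 0.26 ± 0.10 (SE), with an adjusted p of 0.688 by limma.

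Sdhc had ratios of 0.45, 0.60 and 0.62 in control females and 0.60, 0.65, 0.73, 0.75 and 0.90 after UV-Titan. The groups overlapped, with UV-Titan female 2 below control female 40. The difference was 0.17 ± 0.07 (SE), with an adjusted p of 0.688 by limma. In the liver channel alone it was 0.06 ± 0.08 (SE), while the reference channel was lower by −0.07 in the same comparison. The smallest p in the other direction was that of Atp5c1, at −0.15 ± 0.09 (SE) with an adjusted p of 0.828 by limma. Next came Ndufs8, a core iron-sulphur subunit of complex I, at −0.092 ± 0.058, then Atp5b at −0.11 ± 0.10 and the oxidase subunit Cox5a at −0.11 ± 0.10. The 2 tested probes of Cox5a differed in sign, at −0.11 and 0.051. The 3 probes of Atp5b ran from −0.11 to −0.0050.

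In male offspring 0 of 78 members passed the adjusted threshold, against 0% of all genes. The median log2 difference was −0.03 over members and 0.02 over all genes. Above 0 were 24 of 78 members, against 10696 of 18849 genes. In the authors' deposited table the median over members was −0.0075, with 36 of 78 above 0. All 4 complex II genes and 6 of 7 complex III genes were below 0, with medians of −0.07 and −0.06. Complexes I, IV and V had medians of −0.02, −0.03 and −0.03. At an unadjusted p below 0.05 there were 0 members in either direction, while 3.15% of all genes were higher and 1.80% lower. In the liver channel the mean of 11 pancreas markers lay from −0.33 to 2.49 of its mean over arrays in control males. After UV-Titan it lay from −0.48 to −0.056, and its part in the male values was not tested. Every UV-Titan male lay above every control in 1 member, Ndufb3, an accessory subunit of complex I, at 0.10 ± 0.08 (SE), against 1.90% of all genes. Every UV-Titan male lay below every control in 0 members, against 1.08%.

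Ndufv2, a core subunit of complex I with an iron-sulphur cluster, differed by −0.14 ± 0.07 (SE) in males, with an adjusted p of 0.950 by limma. Uqcrc2 differed by −0.16 ± 0.09 in the ratio and by −0.0045 in the liver channel alone. Ndufa8, an accessory subunit, differed by −0.14 ± 0.08. Atp5e, the epsilon subunit of the synthase, was at 0.16 ± 0.08 (SE).

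Cox6a2 gave the widest male difference, and values of muscle genes and of 1 slide moved with it. Its log2 ratios were −3.69, −3.47, −3.39 and −3.28 in control males and −3.44, −3.44, −2.72 and −2.62 after UV-Titan. The 2 higher values were those of UV-Titan males 5 and 17. The difference was 0.40 ± 0.19 (SE), with an unadjusted p of 0.0518 and an adjusted p of 0.950 by limma. It was 0.18 ± 0.12 in the liver channel alone and 0.23 ± 0.12 with slide as a block. Without male UV-Titan 5 it was 0.29 ± 0.20. Within slides 1, 3 and 4, with 1 array of each group, it was −0.047, 0.55 and 0.035, and male UV-Titan 5 is on slide 3.

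On male UV-Titan 5 the liver channel of Cox6a2 read 8.76 on the log2 scale, against 8.07 to 8.49 on the other 15 arrays. Cox8b read 7.39 there, against 6.24 to 6.77 on the other 15. Cox8b was well above background on that array and on no other male array, so no difference is given for it. The same array stood out in skeletal muscle markers: 8 of 9 tested markers were highest there, and all 11 on the array were well above background, against 6 to 9 elsewhere. In the liver channel the mean of the 9 markers lay 2.65 above its own mean over arrays. Elsewhere it lay between −0.29 and −0.01 in control females, −0.37 and 0.44 in UV-Titan females, −0.34 and −0.13 in control males, and −0.34 and −0.22 in the other 3 UV-Titan males. The part of muscle RNA in the Cox6a2 and Cox8b values was not tested. Of 5 heart markers 4 passed the filter, Myh6 being well above background on no array. Their mean lay from −0.29 to 0.57, highest on UV-Titan female 2, and was 0.16 on male UV-Titan 5. Of 4 brown fat markers 3 passed, Ucp1 being well above background on no array. Their mean lay from −0.19 to 0.37, highest on control male 31, and was −0.0030 on male UV-Titan 5.

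**Figure D3:**
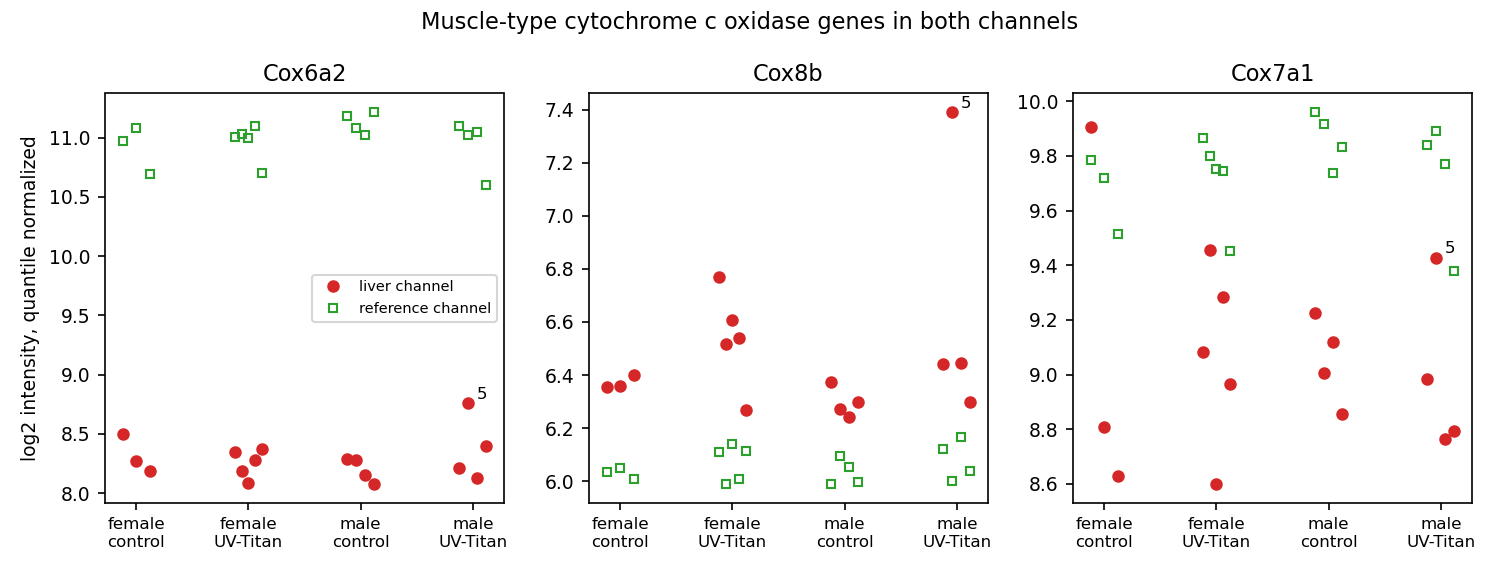
Log2 intensity after quantile normalization (vertical axis) of Cox6a2, Cox8b and Cox7a1 in the liver channel (red points) and the reference channel (green squares) on each array, by group (horizontal axis). The number 5 marks male UV-Titan 5, which has the highest liver value of Cox6a2 (8.76) and of Cox8b (7.39) but not of Cox7a1.

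Cox7a1 did not follow the same order. Its highest liver value was 9.91 on control female 35, against 9.45 on UV-Titan female 8 and 9.43 on male UV-Titan 5. The muscle marker mean on control female 35 was −0.29, below the mean over arrays.

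Part of the variation of Cox6a2 lay in the reference channel, which holds the same RNA on every array. Its reference value ran from 10.6 to 10.7 on the 3 arrays of slide 5 and from 10.97 to 11.2 on the other 13. Male UV-Titan 17, the highest ratio of the group, was on slide 5. For Cox7c the reference value ran from 11.97 to 12.2 on the 6 arrays of slides 1 and 5, and from 11.2 to 11.6 on the other 10. These ranges did not overlap. Differences between slides held 89.6% of the variance of Cox6a2 in the reference channel and 95.6% of that of Cox7c, against a median of 71.1% over members and 66.7% over all genes.

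**Figure D4:**
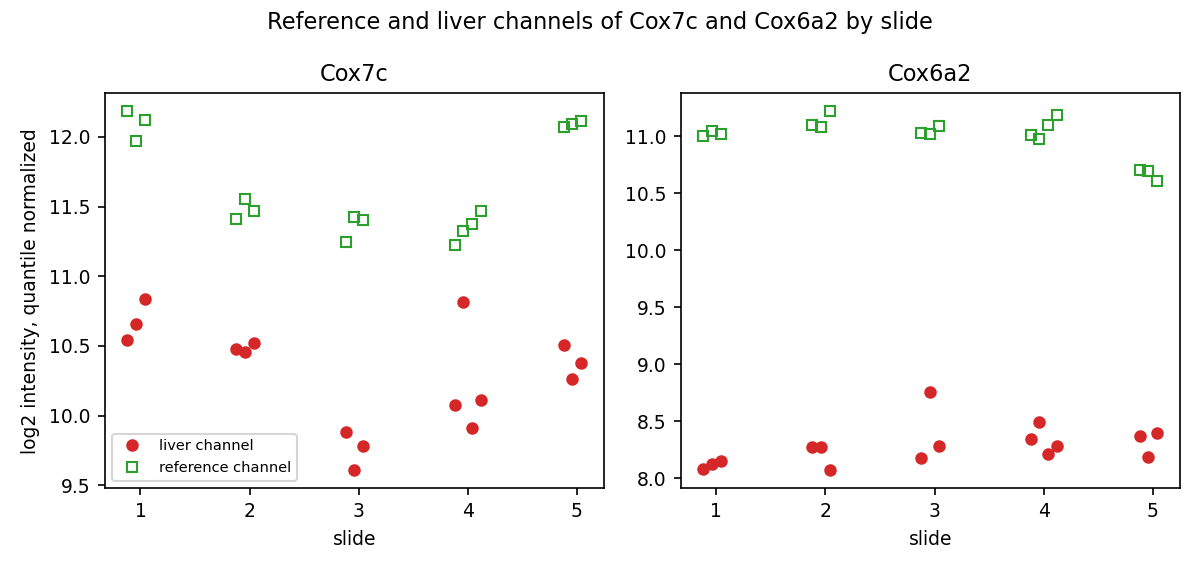
Log2 intensity after quantile normalization (vertical axis) of Cox7c and Cox6a2 by slide (horizontal axis), in the liver channel (red points) and the reference channel (green squares), 1 point per array. The reference squares of Cox7c are high on slides 1 and 5, at 11.97 to 12.2, and those of Cox6a2 low on slide 5, at 10.6 to 10.7.

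Averaged over both sexes, 0 of 78 members passed, against 0% of all genes, with a median of 0.01 over members and 0.02 over all genes. The sign of that small median over members depended on the measure. In the liver channel alone it was −0.033, with 23 of 78 above 0, against 9390 of 18849 genes. In the authors' deposited table it was −0.010, with 32 members above 0, and with Agilent processed signals −0.0039. The smallest p was that of Atp5e, at 0.13 ± 0.06 (SE) with an adjusted p of 0.669 by limma, followed by Ndufb7 at 0.11 ± 0.05. These were the 2 members with an unadjusted p below 0.05 in the higher direction, against 5.57% of all genes, and 0 were so in the lower direction, against 1.53%. A test of whether females and males differed in their response gave 0 of 78, against 0% of all genes. Its median was 0.07 over members, with 61 of 78 above 0, and 0.01 over all genes, with 9899 of 18849 above 0. At an unadjusted p below 0.05, 2 members were higher and 1 lower, against 2.57% and 1.72% of all genes. In the authors' deposited table the median over members was −0.0100, and in the liver channel alone, quantile normalized, it was 0.02. Sdhc had a female minus male difference of 0.23 ± 0.09 and Cox6a2 one of −0.59 ± 0.28 (SE), both with an adjusted p of 0.980 by limma.

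No chain gene passed the test between the sexes. In the comparison of male against female, 0 of 78 members passed, against 0.0477% of all genes (9 genes). The median was −0.01 over members. The smallest unadjusted p was 0.172, that of Ndufa9 at 0.072 ± 0.050 (SE). At an unadjusted p below 0.05 there were thus 0 members, while 2.32% of all genes were higher and 1.95% lower. Cox7c was at −0.21 ± 0.16 and Cox7a1 at −0.19 ± 0.15.

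In the log2 ratio, the arrays farthest from the others were all from females. The median over members of the deviation from each gene's own mean was 0.12 on control female 35 and 0.17 on UV-Titan female 8, but −0.11 on control female 25 and −0.11 on UV-Titan female 21. Male arrays lay between −0.04 and 0.03. Control female 35 and UV-Titan female 8 each held the highest value of 29 of 78 members, and UV-Titan female 21 and control female 25 the lowest of 25 and 23. High and low arrays thus occurred in both female groups in the ratio. In the liver channel alone, quantile normalized, control females lay from −0.027 to 0.11 and UV-Titan females from −0.099 to 0.097. The values that follow are again of the ratio. The complex IV median ran from −0.17 on UV-Titan female 21 to 0.29 on control female 35, and that of complex III from −0.22 on control female 25 to 0.24 on UV-Titan female 8. Leaving out control female 35 moved the female median over members from 0.03 to 0.11, and leaving out control female 25 moved it to −0.02.

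**Figure D5:**
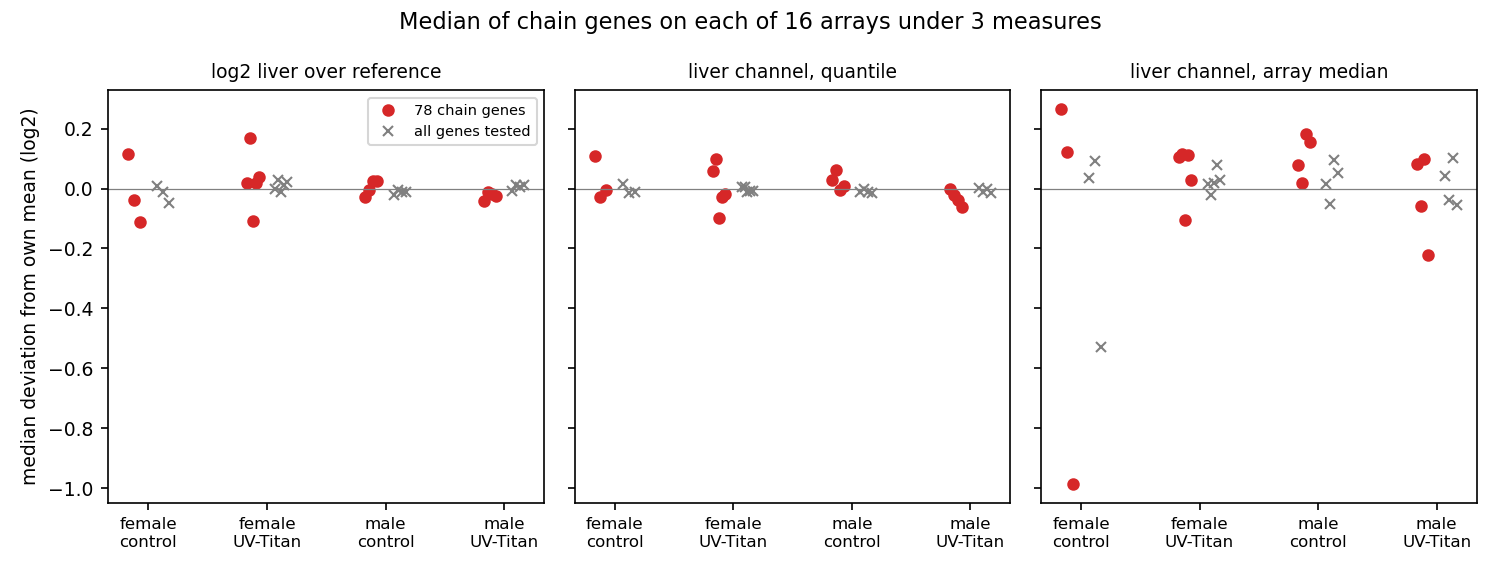
Median deviation from each gene's own mean over 16 arrays, in log2 units (vertical axis), for the 78 members (red points) and all genes tested (grey crosses), by group (horizontal axis) under 3 measures. In the liver channel centred on each array's median, control female 25 lies at −0.99 for members and −0.53 for all genes, while under quantile normalization it lies at −0.01 for members.

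The female comparison depended on how arrays were scaled. With array medians in place of loess the median over members was 0.41 and over all genes 0.27, with all 78 members above 0, and 0 passed. In males the same scaling gave −0.20 over members and −0.09 over all genes, with 2 of 78 above 0.

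Genes that act beside the subunits were read from fixed lists, and 0 passed the adjusted threshold in either sex. Over all genes tested, 11064 of 18849 were higher in females and 10696 in males. None of the 13 mitochondrially encoded subunits was found under its symbol. Of 7 subunits and electron carriers outside the name pattern, 3 were higher in females and 2 in males, with medians of −0.09 and −0.08. Among them Etfa, which passes electrons from fatty acid oxidation to the chain, differed by −0.39 ± 0.10 (SE) in males, with an unadjusted p of 0.00151 and an adjusted p of 0.950 by limma. In the liver channel alone Etfa was at 0.02. Of 25 assembly factors, 8 were higher in females and 10 in males, and the synthase assembly factor Atpaf1 differed by −0.21 ± 0.07 in females. Of 13 biogenesis regulators, 8 were higher in females and 7 in males. Ppargc1a, a coactivator of mitochondrial biogenesis, differed by −0.56 ± 0.24 in males and by 0.16 ± 0.25 in females. Of 13 genes of the tricarboxylic acid cycle, 5 were higher in females and 3 in males, with medians of −0.05 and −0.10. Of 7 membrane carriers, 2 and 3 were higher.

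Of the members with several tested probes, 21 in number, 7 had probes of opposite sign in the female comparison and 6 in the male one. The widest gap between probes of a gene was 0.22 in females and 0.19 in males. Ndufb8 was the widest in females, at 0.089 on the probe used here and −0.13 on its second probe.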

How the data were processed

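Red and green spot intensities, deposited as scanner output of Agilent Feature Extraction 9.5.3.1 per the labels' protocols, were read from 16 two-colour arrays on 5 slides. The authors' deposited log2 table, whose normalization is not given in the sources used here, correlated with the ratios computed here (r from 0.983 to 0.993 per array); its columns have medians from −0.045 to −0.038. Backgrounds were corrected by normexp (offset 50) and ratios normalized by loess in limma 3.58.1 (R 4.3.3), with control spots at weight 0 and outlier spots left out. A gene was tested if well above background in red on at least 3 arrays. A model of 4 group means gave 5 comparisons, adjusted over all genes tested (threshold 0.05). The fit was tested on simulated data. RefSeq gave a symbol for all 80 members, 4 of them changed. Picked for naming were the 3 highest and 3 lowest members per complex, the 4 smallest p per direction and comparison, and tissue forms. Complex II, dim members and members with discordant probes were picked too. Not all values of these members are printed. Members and lists were chosen with earlier results of these data known.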

Additional observations from a re-analysis of the deposited data

Results flagged for a closer look

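Among 46 members picked for naming and the complex medians, 156 sets of 4 or 5 arrays were screened for an array far from the others, and 8 were found. Chance gives about 1 in 20, so the 8 found are near the number expected from chance. In UV-Titan males, replicate 5 stood apart in 4 genes: Cox8b at a log2 ratio of 0.94 against −0.12 to −0.06 in the other arrays, where it was not well above background in liver, Sdha at 1.20 against 1.13 to 1.14, Ndufs7 at 0.065 against −0.07 to −0.05, and Ndufb2 at 0.69 against 0.78 to 0.80. This array is also the one with high skeletal muscle markers, whose part in these values was not tested. In UV-Titan females, Atp5a1 was 0.98 on replicate 2 against 0.77 to 0.82. Ndufb3 was 0.038 on replicate 21 against 0.22 to 0.29, and Uqcrc1 was 0.82 on replicate 8 against 0.50 to 0.58. In control males, Atp5g1 was 0.61 on replicate 41 against 0.58 in the other 3.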

How the results depend on the processing

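Arrays could not be paired by replicate number, as the groups share none. Slide and scan day were fitted as blocks instead, and differences were also taken within slides that held both groups of a sex. The count of members past the adjusted threshold was 0 under every alternative that was run. The median over members took the following values. With array medians in place of loess it was 0.41 in females, −0.20 in males, 0.12 averaged, 0.61 for the female minus male effect and 0.17 for male against female. With the liver channel centred on array medians these were 0.25, −0.13, 0.06, 0.35 and 0.11. With the reference channel so centred, an alternative chosen after seeing the data, females were at −0.063 and the female minus male effect at −0.062. The deposited table gave −0.0100 for that effect. Within slides 4 and 5 the female median was −0.087 and 0.17. Leaving out 1 array gave from −0.016 (without control female 25) to 0.11 (without control female 35) in females, −0.05 to −0.02 in males, −0.01 to 0.04 averaged, 0.01 to 0.11 for the female minus male effect and −0.04 to 0.02 for the sexes. The level over the reference for complexes I to V was 0.86, 1.03, 0.95, 0.62 and 0.79 with array medians (0.81 over members). In the deposited table it was 0.18, 0.64, 0.37, −0.059 and 0.12 (0.16 over members), the sign of complex IV turning. Agilent processed signals gave 0.57, 0.75 and 0.85 for complexes I, II and III. The mean over probes gave 0.55, 0.72 and 0.48 for I, II and V, and no filter gave 0.20 for IV. The causes were not tested. Over all genes the count called in females rose from 0 to at most 6 with array weights, and averaged over sexes to 11 with slide as a random block. For male against female it fell from 9 to 3 when only genes above background on all arrays were tested. Of 1335 values of the 40 gene results under alternatives other than the reference channel, 1306 kept their sign. With the reference channel included, 166 values moved by more than the SE of the difference and 1249 did not. Several alternatives cannot change a difference, such as another filter or the omission of an array of the other sex. The 40 results were also picked by smallest p in these data, so these counts do not measure robustness. Signal over background limits Cox4i2, Cox8b and Cox8c.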

Other observations

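A few probes for chain genes, most of them placed on the mitochondrial chromosome, were on the array under other names, picked here by description after the values were seen. ENSMUST00000082421 had a mean log2 ratio of 1.38 ± 0.10 (SD, n = 16), AK144853 one of 1.47 ± 0.12 and BE368005 one of 1.41 ± 0.13. ENSMUST00000082405, described as mitochondrial oxidase subunit II but placed on chromosome 1 in mm7, had one of 0.67 ± 0.11. AK052909, described as weakly similar to oxidase subunit Va, was well above background in liver on 0 of 16 arrays. ENSMUST00000082421 differed between UV-Titan and control by 0.00013 ± 0.08 (SE) in females and −0.05 ± 0.08 in males, with adjusted p-values of 0.9996 and 0.966 by limma. AK144853 differed by −0.13 ± 0.10 and −0.093 ± 0.084, BE368005 by −0.095 ± 0.092 and −0.10 ± 0.09, and ENSMUST00000082405 by −0.043 ± 0.080 and −0.094 ± 0.078. The TC1410591 probe, described as the Cox7c polypeptide, differed by 0.18 ± 0.07 (SE) in females with an adjusted p of 0.688 by limma, and by 0.03 ± 0.07 in males.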
